A study of Drosophila melanogaster with 4 samples.

Results

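The muscle attachment and integrin adhesion genes examined here are mys, if, mew, rhea, Ilk, stck, parvin and sr, 8 genes of the 17684 annotated on the main chromosome arms. They were chosen by name, and every called peak that overlapped a gene's span or the 2000 bp on either side of it was counted as belonging to it. In the 4 peak lists together these windows held 70 accessible regions of the 44429 on the main arms. The assay was ATAC-seq, which marks open chromatin by the insertions of a transposase, on nuclei of Drosophila melanogaster thoracic muscle from which mainly flight muscle was taken. Per the labels, the mutant libraries came from w[1118] flies that carry Pgk[Delta.E2F] (line 12), an allele of the phosphoglycerate kinase gene with a mutated E2F site upstream of it, and the control libraries came from w[1118] flies. Both groups were untreated pharate animals (fully formed inside the pupal case), 96 h after puparium formation at 25 °C, with at least 40 animals pooled per library and 2 libraries per genotype. The mutants derived from 1 line, and the genotypes rest on the labels, since a peak list does not show the bases of the allele. No label says that the 2 libraries of a genotype came from separate crosses, so p-values measure only the spread between libraries, which may be technical.

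Integrins are receptors of an α and a β chain that join the extracellular matrix to the actin cytoskeleton. At the ends of fly muscles the β chain encoded by mys pairs with the α chain of if on the muscle side and with the α chain of mew on the tendon side. Inside the cell, talin (rhea) links the integrin to actin, and the adaptors Ilk, PINCH (stck) and Parvin form a complex at the same sites. Stripe (sr) is a transcription factor of the EGR family that specifies tendon cells, to which the flight muscles attach, so it marks a cell type that is not muscle.

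The deposited lists held 25528 and 25985 main-arm peaks in mutants 1 and 2, against 29341 and 29923 in controls 1 and 2. The most frequent local background pileup of a list, solved from the authors' fold enrichments and p-values, served as a measure of depth and came to 4.62 and 5.26 for mutants 1 and 2, against 7.44 and 7.61 for controls 1 and 2. Depth and genotype therefore run together in every comparison below and cannot be told apart by the lists as deposited. A peak within 500 bp of a gene end in all 4 libraries was found at 36.9% of all annotated genes. Of 10 flight muscle markers, 9 had such a peak in all 4 libraries, and fln lacked it only in mutant 1. A peak of this kind in all 4 libraries was found at 1 of 5 neuronal markers (elav), 0 of 2 tracheal, 0 of 3 haemocyte and 1 of 3 fat body markers (Lsp2), at the epidermal marker grh, and at 1 of 4 tendon markers (slow). In pooled tissue, fewer cells of a type and less open chromatin per cell cannot be told apart.

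Fewer peaks lay at the attachment genes in the mutants than in the controls, and they covered less DNA. The 8 windows, 197.9 kb in all, held 44 and 34 peaks in mutants 1 and 2, against 52 and 45 peaks in controls 1 and 2. Both mutants lay below both controls, but mutant 1 was only 1 peak below control 2 (44 against 45). The means were 39 ± 7.07 peaks in mutants and 48.5 ± 4.95 peaks in controls (SD, n = 2 each), a difference of -9.5 peaks (two-sided exact permutation test over 6 labelings, p = 0.333, the smallest value 2 against 2 allows). The size of this difference moved with single libraries: it was -14.5 peaks without mutant 1, -4.5 without mutant 2, -6 without control 1 and -13 without control 2. The separation of the genotypes also depended on the lists. With the same number of peaks taken from every list the windows held 44 and 34 peaks in mutants 1 and 2, against 46 and 38 in controls 1 and 2, so that the groups overlapped (difference -3 peaks, exact permutation p = 0.667). With lists scaled to equal background they held 44 and 34 peaks in the mutants, against 48 and 40 in the controls (difference -5, exact permutation p = 0.667). Peaks covered 7125 and 6159 bp of the windows in mutants 1 and 2 and 9289 and 9237 bp in controls 1 and 2. The mutant mean of 6642 ± 683 bp was 0.717 times the control mean of 9263 ± 36.8 bp (SD, n = 2 each, exact permutation p = 0.333). Peaks were also fewer and narrower in the mutants over the whole main arms. There the mutant mean was 0.869 times the control mean for peak number and 0.882 times for median width (115.5 against 131 bp).

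Relative to the length of each list the genotypes overlapped. The windows held 1.72 and 1.31 of every 1000 main-arm peaks in mutants 1 and 2, and 1.77 and 1.504 of every 1000 in controls 1 and 2. The difference in means, -0.122 per 1000, was within the spread between replicates (exact permutation p = 0.667), and it changed sign without mutant 2 (0.0855) and without control 1 (0.0122). The median width of the peaks was 130 and 142 bp in mutants 1 and 2, against 132.5 and 160 bp in controls 1 and 2, and these values overlapped too (difference -10.2 bp, exact permutation p = 0.667; 3.5 bp without control 2).

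**Figure D1:**
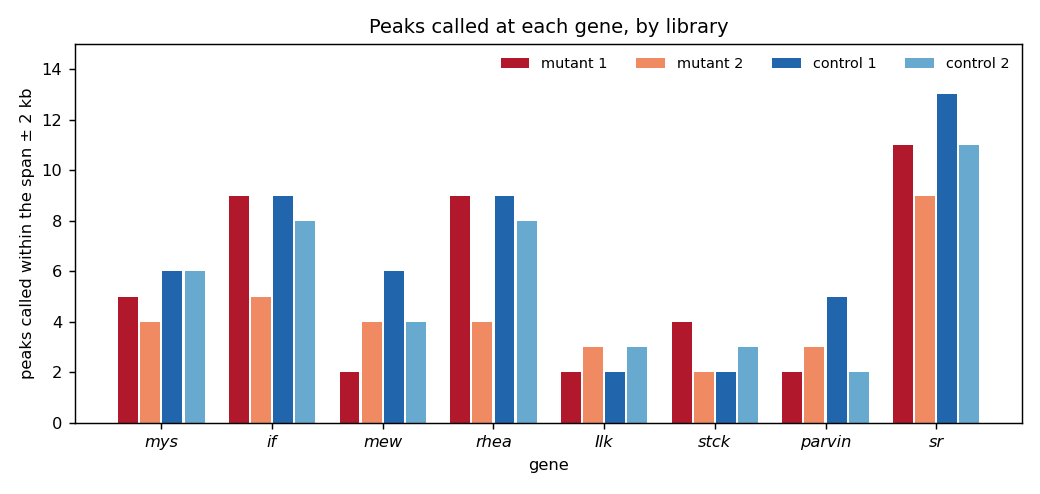
Number of peaks called within the span of each gene and 2 kb on either side (y axis), for each gene (x axis) and library (bars, mutants left of controls). Both mutant bars stay below both control bars at mys alone, and sr has the most peaks in every library, 11 and 9 in mutants 1 and 2, against 13 and 11 in controls 1 and 2.

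The 3 integrin subunit genes lie on X and held 27 of the 70 regions, 9 of them (33.3%, beside 30.3% of all regions) called in all 4 libraries. At mys (Dmel_CG1560, X:8061645-8070237) 5 and 4 peaks were called in mutants 1 and 2, against 6 in each control. This was the 1 gene of the 8 at which the peak counts of the genotypes did not overlap, by 1 to 2 peaks, a difference in means of -1.5. That difference was -0.5 peaks at equal list length, with −log10 q of at least 5 and with the span alone (no flank), and -3.5 peaks with a flank of 5000 bp. The strongest accessibility in the mys window sat at the lower-numbered end of the gene. There region 3 (X:8061418-8061707) crossed the end of the gene and also touched the neighbouring gene fs(1)h, 208 bp away. It ranked in the top 5.50% and 4.48% of the lists of mutants 1 and 2 and in the top 5.86% and 6.34% of those of controls 1 and 2, by −log10 p within each list. Region 2 (X:8060944-8061207), inside fs(1)h, had its summit at the same base in all 4 libraries. Region 1 (X:8060595-8060690), also called in all 4 libraries, overlapped fs(1)h as well. The assignment of regions 1, 2 and 3 to mys is therefore not certain. Within the gene, region 5 (X:8067868-8068147) was called in all 4 libraries at lower ranks, 40.0% and 46.5% for mutants 1 and 2, against 19.4% and 31.0% for controls 1 and 2.

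The gene if (Dmel_CG9623, X:16752189-16783434), which encodes the muscle-side α chain, had 9 and 5 peaks in mutants 1 and 2 and 9 and 8 peaks in controls 1 and 2, so the groups overlapped. Accessibility gathered at its upper-numbered end, where 3 regions in all 4 libraries lay within 1 kb of the end. Region 11 (X:16782463-16782772), 662 bp inside the gene, ranked in the top 13.5% and 15.7% of the mutant lists and the top 6.09% and 9.43% of the control lists. Region 12 (X:16783398-16783540) crossed the end of the gene and was called as the same 143 bp interval in all 4 libraries. Region 13 (X:16783861-16783988) lay 427 bp beyond the end and overlapped mRpL22, a mitochondrial ribosomal protein gene, so its assignment to if is not certain. A single region in all 4 libraries lay deep inside the gene, region 7 (X:16763292-16763459), 11.1 kb from the nearer end.

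Among the 8 genes, regions were sparsest at mew. This gene of 44082 bp (Dmel_CG1771, X:13214409-13258490), which encodes the tendon-side α chain, had 2 and 4 peaks in mutants 1 and 2 and 6 and 4 peaks in controls 1 and 2. Its window held 1.46 regions per 10 kb, the lowest density of the 8 genes, against 3.54 per 10 kb over all 8 windows. It nevertheless held one of the strongest regions of the set, region 6 (X:13257103-13257377), which lay 1113 bp inside the upper-numbered end. This region ranked in the top 1.93% and 0.754% of the lists of mutants 1 and 2 and the top 2.18% and 2.11% of those of controls 1 and 2, and its summits lay within 1 bp of each other. The authors' fold enrichments there were 17.1 and 24.8 in mutants 1 and 2 and 23.1 and 21.5 in controls 1 and 2, each against that library's own background. Regions 4 (X:13253981-13254304) and 7 (X:13258177-13258263) lacked a call only in mutant 1. Another gene, CG15742 (X:13257392-13258495), overlaps mew at this end. Region 6 ended just short of CG15742 and region 7 overlapped it, so the assignment of both regions to mew is not certain.

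The 4 adaptor genes held 29 regions. Of these, 6 (20.7%, beside 30.3% of all regions) were called in all 4 libraries and 13 in a single library, beside 37% of all regions. Talin's gene rhea (Dmel_CG6831, 3L:8545001-8574409) had 9 and 4 peaks in mutants 1 and 2 and 9 and 8 peaks in controls 1 and 2, so in peak count mutant 1 was like the controls and mutant 2 stood apart. One region dominated it: region 1 (3L:8546334-8546742), 1333 bp inside the lower-numbered end. Its summit was at the same base in all 4 libraries, and it ranked in the top 2.41% and 1.405% of the mutant lists and the top 0.879% and 0.993% of the control lists. The other region in all 4 libraries, region 15 (3L:8572093-8572264), ranked much lower, between 55.5% and 90.2%. No library had a peak within 500 bp of either end of rhea, which 34.6% of all annotated genes share. Of its 16 regions 8 were called in 1 library each, 4 of those in mutant 1. Mutant 1 was thus like the controls in count but not in the regions called.

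Ilk (Dmel_CG10504, 3L:21216901-21219240), stck (Dmel_CG7954, 3R:8356978-8359964) and parvin (Dmel_CG32528, X:19746041-19748458) are the 3 shortest of the 8 genes. Ilk had 2 and 3 peaks in mutants 1 and 2 and 2 and 3 in controls 1 and 2, the same counts in both genotypes. Region 4 of Ilk (3L:21219285-21219510), 45 bp beyond the upper-numbered end, was called in all 4 libraries with its summit at the same base. Region 1 (3L:21216801-21216932), across the other end and overlapping Trmt112, was called in mutant 2 and both controls but not in mutant 1.

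At stck 4 and 2 peaks were called in mutants 1 and 2 and 2 and 3 peaks in controls 1 and 2. Both of its regions in all 4 libraries lay at the lower-numbered end, region 1 (3R:8356867-8356996) across the end and region 2 (3R:8357186-8357378) 208 bp inside. Region 2 stood in the top 13.6% and 12.4% of the mutant lists and the top 11.4% and 9.11% of the control lists. The 2 regions further inside that mutant 1 added were called in no other library.

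At parvin 2 and 3 peaks were called in mutants 1 and 2 and 5 and 2 peaks in controls 1 and 2. The strong region of its window, region 1 (X:19743893-19744518), lay 1523 bp from the gene and overlapped COX6B, a subunit gene of the respiratory chain, as well as CG18809, Rpp20 and CG33932, so its assignment to parvin is not certain. Near the gene itself, region 3 (X:19746492-19746579) was called in mutant 1 and both controls, and region 2 (X:19746044-19746119) in mutant 2 and control 1. Each library thus had a peak within 500 bp of an end of parvin, but no region there was shared by all 4.

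The tendon gene sr (Dmel_CG7847, 3R:18090803-18135583) had 9 of its 14 regions called in all 4 libraries, beside 30.3% of all regions. Next came mys with 4 of 7, of which all but region 5 overlapped fs(1)h. At sr mutants 1 and 2 had 11 and 9 peaks, and controls 1 and 2 had 13 and 11. All 9 regions shared by the 4 libraries lay inside the gene, from 3757 bp to 17786 bp from its nearer end. Without sr, 15 of the 56 other regions were called in all 4 libraries. The strongest were region 10 (3R:18121422-18122106) and region 3 (3R:18097565-18098012). Region 10 ranked in the top 2.67% and 1.62% of the lists of mutants 1 and 2 and the top 0.835% and 1.48% of those of controls 1 and 2, with called widths of 630 and 685 bp in the mutants and 683 bp in each control. Region 3 ranked in the top 2.41% and 1.93% of the mutant lists and the top 2.05% and 1.504% of the control lists. Region 6 (3R:18108589-18109063) coincided with a pair of glycine tRNA genes, tRNA:Gly-TCC-1-3 and tRNA:Gly-TCC-1-4, and its summits lay up to 371 bp apart. The ends of sr were different: within 500 bp of them the only region, region 1 (3R:18090386-18090666), was called in both controls and in neither mutant. It ranked low, at 84.0% and 86.0% of the lists of controls 1 and 2. At equal list length it remained in control 1 alone, and with −log10 q of at least 5 in no library. Of the other tendon markers, slow had an end peak in all 4 libraries, and Tsp and Lrt lacked one only in mutant 1.

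**Figure D2:**
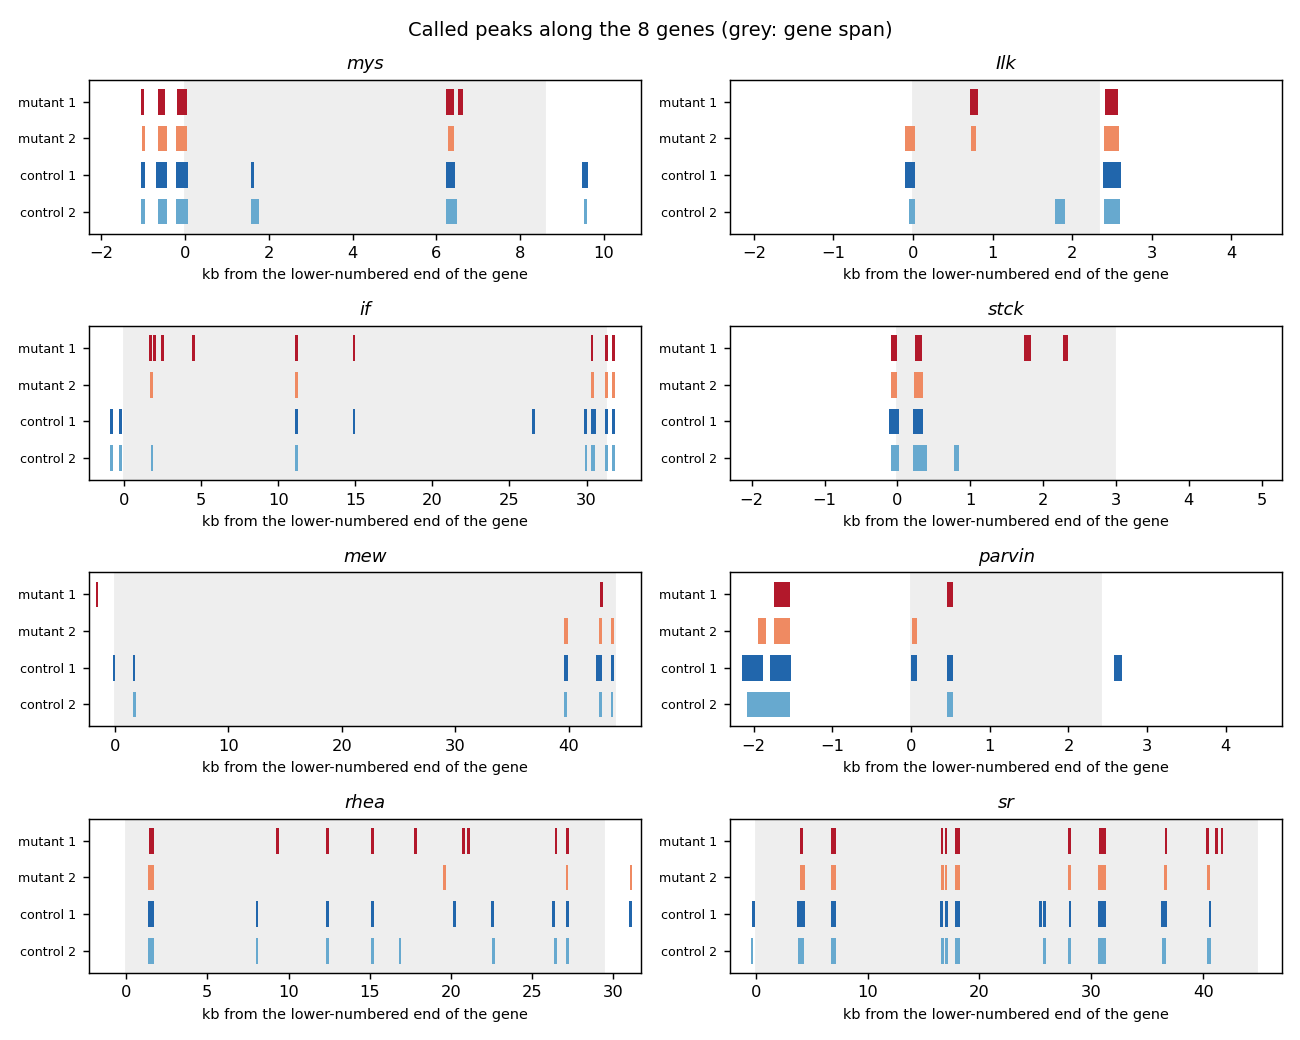
Called peaks along each of the 8 genes, with distance in kb from the lower-numbered end of the gene on the x axis and 1 row per library, mutants above controls. Grey marks the gene span, and short peaks are drawn at a minimum width so that they can be seen; all 4 rows share 9 regions at sr, 4 each at mys and if, 2 each at rhea and stck, and 1 each at mew, Ilk and parvin.

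Across the 8 genes, 24 of the 70 regions (34.3%) were called in all 4 libraries, beside 30.3% of all regions on the main arms, and 24 (34.3%) were called in 1 library, beside 37% of all regions. The calls of the shared regions had a median rank in the top 13.6% of the library's list, against 72.4% for the calls of regions found in 1 library. In the top 5% of each of the 4 lists stood 5 of the 70 regions, namely region 6 of mew, region 1 of rhea, region 1 of parvin and regions 3 and 10 of sr, beside 1.81% of all regions. By position, 7 of 16 regions within 500 bp of a gene end were called in all 4 libraries, as were 15 of 48 further inside the genes and 2 of 6 further out in the flanks. Much of the inside count came from sr. Without sr it was 6 of 35 further inside, against 7 of 15 within 500 bp of a gene end. Other annotated genes overlapped 16 of the 70 regions, 6 of them called in all 4 libraries.

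**Figure D3:**
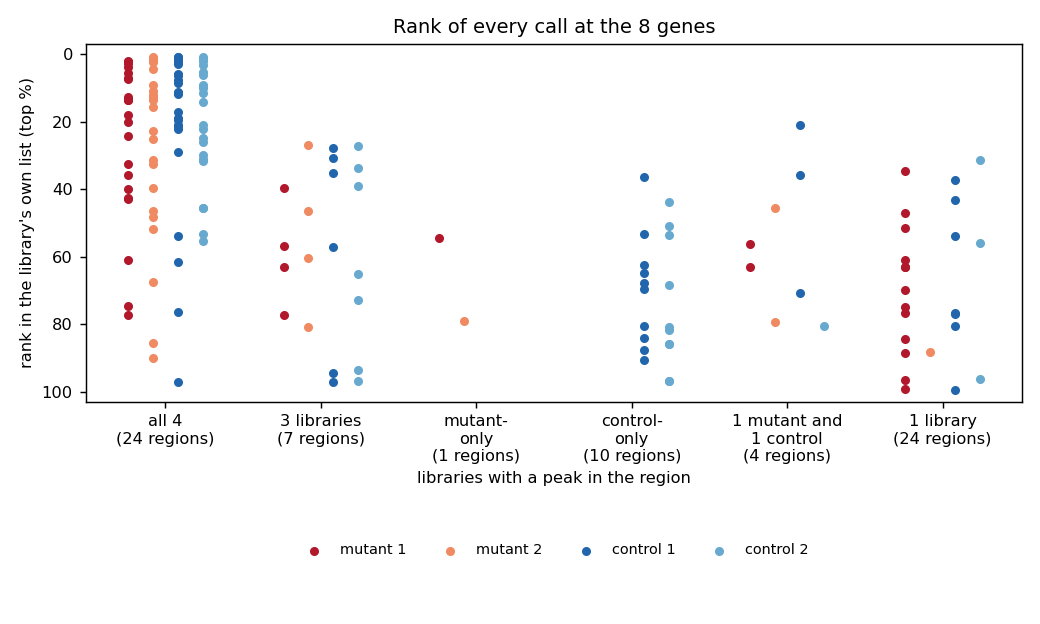
Rank of each call within its own library's list (y axis, percent from the top, strongest at the top) by the libraries that share the region (x axis), with mutants left of controls in each class. Every call in the top 20% of a list belongs to a region of all 4 libraries, and the calls of control-only regions run from 36.5% to 96.8%.

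A peak within 500 bp of a gene end was called in all 4 libraries at 5 of the 8 genes, mys, if, Ilk, stck and parvin, beside 36.9% of all annotated genes. At mew it was missing only in mutant 1. At sr it was called in the controls only (beside 2.84% of all annotated genes), and at rhea in no library (beside 34.6%). At parvin the count rests on different regions, none of them shared by all 4 libraries. The gene table gives no strand, so which end is the start of a gene is not stated here. Without mutant 1 the count of genes was 6, and with all libraries it was 4 within 250 bp and 5 within 1000 bp of a gene end.

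Regions called in both controls and neither mutant numbered 10 of 70 (14.3%), beside 5.93% of all regions, and 1 of 70 (1.43%) was called in both mutants and neither control, beside 1.76%. The 10 control-only regions were 3 at if, 2 each at mys, rhea and sr, and 1 at mew. So 6 lay in the windows of the integrin subunit genes (22.2% of their 27 regions, beside 5.93% of all regions). Other annotated genes overlapped 3 of the 10, namely goe at regions 1 and 2 of if and Upf2 at region 7 of mys, so their assignment is not certain. None of the 10 was among the strong calls: they ranked between 36.5% and 96.8% of the control lists, with a median of 75.1%. The best placed by mean rank was region 2 of if (X:16751899-16751996), which overlapped the end of the neighbouring gene goe and lay 193 bp from if, at 36.5% and 43.9% of the lists of controls 1 and 2. The only mutant-only region, region 2 of Ilk (3L:21217620-21217712), lay 719 bp inside the gene and ranked at 54.5% and 79.2% of the lists of mutants 1 and 2.

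The number of control-only regions depended on list length and on the threshold. With the same number of peaks taken from every list it was 5 of 67 regions (7.46%), beside 4.49% of all regions, and with −log10 q of at least 5 it was 3 of 58 (5.17%), beside 6.96%. With lists matched for the recovered background it was 8 of 68 (11.8%), beside 5.28%. Both controls alone shared region 4 of mys (X:8063212-8063411), region 2 of if and region 2 of rhea (3L:8553018-8553098) in each of the 4 alternative lists, those with −log10 q of at least 3 included. The same 4 lists kept the mutant-only region of Ilk. However, all 4 lists only drop peaks. No mutant call could therefore appear at a control-only region, and no control call at the Ilk region. Being kept shows only that the calls already present ranked high enough to stay. Equal length and background matching also left all 25528 peaks of mutant 1, and 25528 and 25959 of the 25985 peaks of mutant 2. Keeping the Ilk region was therefore largely set in advance. Region 1 of if (X:16751338-16751420) and region 8 of sr (3R:18116518-18116669) were control-only in none of the 4 lists. The others were kept in 2 or 3 of the 4: region 7 of mys (X:8071112-8071263), region 10 of if (X:16782101-16782185), region 3 of mew (X:13216051-13216212), region 12 of rhea (3L:8567541-8567637) and region 1 of sr. No single region can be tested with 2 libraries per genotype.

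**Figure D4:**
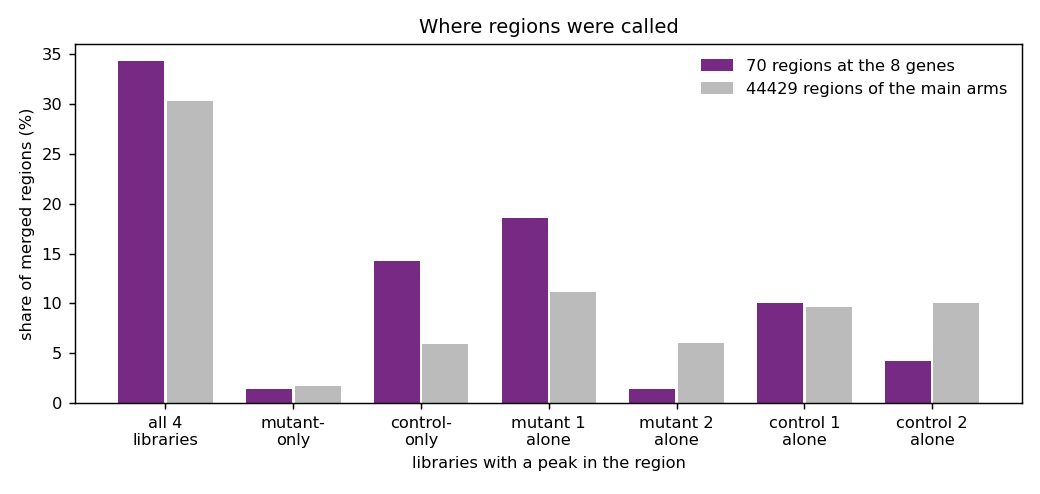
Share of merged regions (y axis, percent) by the libraries that called them (x axis), for the 70 regions at the 8 genes and the 44429 regions of the main arms. At the 8 genes 14.3% were control-only and 18.6% were called in mutant 1 alone, beside 5.93% and 11.2% on the main arms.

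The 2 mutant libraries differed from each other at these genes. Mutant 1 alone called 13 of the 70 regions (18.6%), beside 11.2% on the main arms, and mutant 2 alone called 1 (1.43%), beside 6.05%. Those of mutant 1 were 4 at rhea, 3 at if, 2 each at stck and sr, and 1 each at mys and mew. Control 1 alone called 7 regions (10%, beside 9.66%) and control 2 alone 3 (4.29%, beside 10.1%). Of the 7 regions called in 3 libraries, 3 lacked mutant 1 and 3 lacked mutant 2, whereas on the main arms 59.0% lacked mutant 1 and 21.0% lacked mutant 2.

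The regions shared by all 4 libraries were called narrower in the mutants. Their summed called width was 4832 and 5410 bp in mutants 1 and 2 and 6784 and 6873 bp in controls 1 and 2. Both mutants lay below both controls, with means of 5121 ± 409 bp in mutants and 6828.5 ± 62.9 bp in controls (SD, n = 2 each; ratio 0.750; exact permutation p = 0.333). In 15 of the 24 shared regions both mutants were narrower than both controls, and in 0 were both wider, beside 50.3% and 4.33% of the 13474 shared regions of the main arms. The median ratio of mutant to control width was 0.790 at the 8 genes and 0.850 on the main arms. Region 1 in the window of parvin was called over 195 and 304 bp in mutants 1 and 2, against 532 and 547 bp in controls 1 and 2. At sr, region 2 (3R:18094560-18095179) was called over 215 and 423 bp by mutants 1 and 2, against 533 and 584 bp by controls 1 and 2, and region 11 (3R:18127070-18127586) over 231 and 67 bp by mutants 1 and 2, against 517 and 349 bp by controls 1 and 2. Regions 3 and 10 of sr did not follow this: the widest call was that of mutant 1 in region 3 (448 bp) and that of mutant 2 in region 10 (685 bp). The recovered background, lower in both mutants, moved with these widths, and its part in them was not tested.

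The summits of a shared region lay within a median of 15 bp of each other over the 4 libraries, beside 30 bp on the main arms, and within 20 bp in 14 of 24 regions (58.3%, beside 38.3%).

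**Figure D5:**
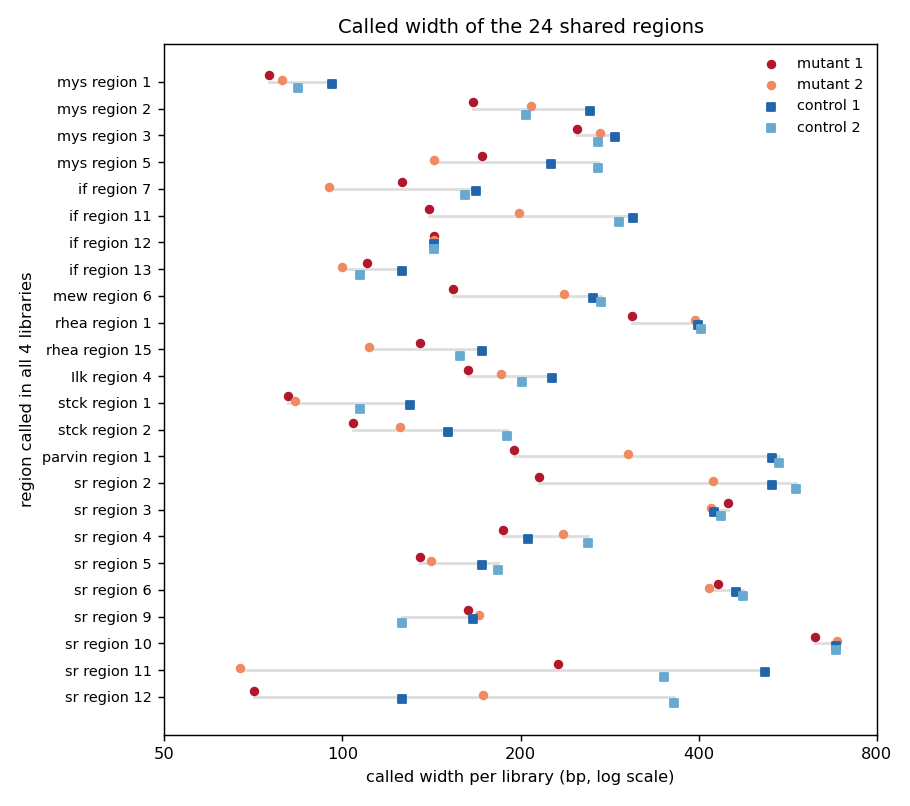
Called width in bp (x axis, log scale) of each of the 24 regions called in all 4 libraries (y axis), with 1 point per library, mutants as circles and controls as squares. Both circles lie left of both squares in 15 of the 24 regions, and in 0 do both lie right of them.

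Further genes of the pathway were described from 4 lists with 33 genes. Of these, 21 had a peak within 500 bp of a gene end in all 4 libraries (beside 36.9% of all genes), 1 in the controls only (beside 2.84%), 0 in the mutants only (beside 0.549%) and 6 in no library (beside 34.6%). Their windows held 289 regions, of which 97 (33.6%, beside 30.3% of all regions) were called in all 4 libraries, 13 (4.50%, beside 5.93%) were control-only and 5 (1.73%, beside 1.76%) mutant-only. These shares were near those of all regions. Among the other integrin subunits, scb had an end peak in all 4 libraries, ItgaPS5 lacked it only in mutant 1, and ItgaPS4 and Itgbn had none. Of 11 other adhesion complex genes 7 had an end peak in all 4 libraries, among them Vinc (vinculin), Pax (paxillin), Fak (focal adhesion kinase) and Fit1 (a kindlin). Fit2, the other kindlin gene, lacked it only in mutant 1, CAP had it in mutant 1 alone, and Zyx and p130CAS had none.

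Of 10 matrix genes 6 had an end peak in all 4 libraries, including Tig, the gene of the integrin ligand tiggrin. LanA, a laminin α chain gene, was the only pathway gene whose end peak was called in both controls and neither mutant. None of its 7 regions was called in all 4 libraries. LanB1 and vkg had no end peak in any library. Over the 10 matrix genes 13 of 80 regions (16.2%, beside 30.3% of all regions) were called in all 4 libraries. The tendon and attachment-site genes had an end peak in all 4 libraries in 7 of 8 cases, all but Lrt. The spectraplakin gene shot, needed in tendon cells, held 37 regions. Of these, 16 were called in all 4 libraries (beside 30.3% of all regions), 0 were control-only (beside 5.93%) and 1 was mutant-only (beside 1.76%).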

How the data were processed

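ATAC-seq libraries of 2 mutant and 2 control samples were each given as 1 deposited peak list. Per the submitters' processing notes, Bowtie2 2.4.1, cutadapt 2.3, Picard and MACS2 2.2.7.1 were used with build BDGP6; peak-calling options, duplicate handling and the transposase shift are not given in the sources used here. The deposited fold enrichment is a ratio over local background in the same library; it and the deposited −log10 p and q were made by the authors. The deposited score column, 10 times −log10 q, was not used. Ranks are by −log10 p within the main arms (2L, 2R, 3L, 3R, 4, X).

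Intervals sharing at least 1 bp over the 4 lists were joined into regions (Python 3.11.15, pandas 2.3.3, scipy 1.17.1). Spans came from a RefSeq gene table of release 6 without strand or exons, so the planned gene-start count used either gene end, and all 8 members and all list genes matched it. No genome sequence was used, so the planned motif search was not run. Group means were compared by exact permutation. Pileup and local background were solved from fold and −log10 p up to 250 under a Poisson model, and the most frequent background value of a list was taken; read depth itself is unknown. Region joining and this step were tested on simulated data. Named were all members, with the region at a gene end, the best ranked region and every genotype-specific region, and fixed pathway partners. The members and lists were chosen with earlier results of these data known.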

Additional observations from a re-analysis of the deposited data

How the results depend on the processing

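For the main results 111 alternative values were computed, and 98 of them held (same direction, or a count within 1.5 times). For a difference only the sign was compared, so -3 peaks at equal list length, where the genotypes overlapped, counted as held. Pairing replicates by number (a replicate block) repeats the main differences by construction. Requiring the summit inside the window left the differences in peaks, covered bp, peaks per 1000 and median width unchanged. Control-only regions numbered 5 at equal list length, 3 with −log10 q of at least 5 and 6 with no flank, and mutant-only regions numbered 2 at equal list length and 2 in lists scaled to equal depth, where fewer peaks or bases entered. A flank of 5000 bp gave 39 regions in all 4 libraries. Without 1 library each, the ranges were -14.5 to -4.5 peaks, -3104 to -2138 bp covered, -0.330 to 0.0855 peaks per 1000 (above 0 without mutant 2 and without control 1, 0.0122), -24 to 3.5 bp of median width, 24 to 27 shared, 13 to 18 control-only and 1 to 14 mutant-only regions, 5 to 6 genes with end peaks, -1999.5 to -1351.5 bp in shared regions and 18 to 21 narrower regions. A genotype with 1 library left admits all its calls, so such counts rise by construction. Under a replicate block the differences were -9.5 peaks, -2621 bp covered, -0.122 per 1000, -10.2 bp of median width and -1707.5 bp in shared regions, each with an exact sign-flip p = 0.5, the smallest that 2 pairs allow. The correlation of the replicate differences of both genotypes over all regions was -0.0960, which gives no pairing by number. The alternatives for the shared regions were chosen after seeing the data. Of 88 alternative values for single genes 5 moved beyond the replicate spread, 4 at mys and 1 at sr; the cause was not tested. With 2 lists per genotype, a weak region missed by a shallower list and a closed one look the same.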
